A study of Mus musculus with 6 samples.

Results

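The tricarboxylic acid (TCA) cycle, its anaplerotic enzymes, the malate-aspartate shuttle enzymes and the mitochondrial transhydrogenase were examined as 29 genes, chosen by their symbols from the 46095 rows of a table of raw read counts. All 29 were present and all passed the filter on low counts, which kept 14757 genes. By compartment, 23 of the enzymes are mitochondrial, 5 are cytosolic (Aco1, Idh1, Mdh1, Got1 and Gpt), and fumarase (Fh1) serves both compartments. The measurements were 6 RNA sequencing libraries of brown adipocytes induced in culture, 3 from control mice and 3 from U-IRX3ov mice, all on the C57BL/6 background. The cells came from the stromal vascular fraction, the non-adipocyte cells of digested fat, of brown adipose tissue of mice aged 5 weeks. Both groups had the same 8 days of induction, starting with 2 days of dexamethasone (1 µM), IBMX (0.5 mM), insulin (5 µg/mL), triiodothyronine (1 µM) and rosiglitazone (1 µM) and continuing for 6 days without the first pair of agents. The promoter and structure of the IRX3 construct, the C57BL/6 substrain and the animals or cultures behind each library were not given in the sources used here, and p-values therefore measure the spread between these libraries, which may be technical.

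The cycle oxidises acetyl-CoA in the mitochondrial matrix and passes the electrons to the respiratory chain, which brown adipocytes run at high rate and can uncouple to make heat. Intermediates that leave the cycle are replaced by anaplerosis, for example by pyruvate carboxylase. Because the inner membrane does not pass NADH, the malate-aspartate shuttle moves reducing equivalents through paired cytosolic and mitochondrial malate dehydrogenases and aspartate aminotransferases. Several other steps also exist as a cytosolic and a mitochondrial enzyme, each from its own gene.

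Library totals ran from 20094799 to 26755870 counts. Expression is given as CPM, a gene's counts divided by the library's size after TMM scaling, which corrects that size for composition, and differences as log2 fold changes of U-IRX3ov over control from edgeR's quasi-likelihood test, with p-values adjusted over all 14757 genes and a threshold of 0.05. Irx3, the gene named in the genotype, had 4.78, 5.42 and 5.12 CPM in control and 6.27, 6.31 and 5.89 CPM in U-IRX3ov libraries, a log2 fold change of 0.27 ± 0.13 (SE) that did not pass the test (adjusted p = 0.112). The 2 groups did not overlap. The label cannot be checked from these values, because it is unknown whether transcripts of the construct align to Irx3. Adipocyte markers rose in 9 of 10 genes, with a summed level of 30203 to 30879 CPM in control and 38088 to 39492 CPM in U-IRX3ov libraries. Such sums follow the most abundant genes of a list. Beside the counts of markers given here, 20.2% of all genes tested were higher and 21.1% were lower. Preadipocyte and fibroblast markers fell in 9 of 10 genes (6632 to 6788 against 3978 to 4303 CPM), macrophage and leukocyte markers in 10 of 10 (450 to 554 against 146 to 219 CPM) and pericyte and smooth muscle markers in 4 of 8, with 2 higher (3453 to 3579 against 2178 to 2415 CPM). Endothelial markers rose in 4 of 7 tested genes (19.6 to 23.2 against 39.2 to 44.4 CPM), and Cldn5 was at 0 in the 6 libraries. Brown adipocyte markers rose in 8 of 8, from 237 to 244 CPM in control to 687 to 786 CPM in U-IRX3ov libraries. The median log2 fold change of the 8 was 1.47, with values from 0.39 to 3.60. The highest was that of Ucp1, the uncoupling protein (3.60 ± 0.08, SE). The median of the 10 general adipocyte markers was 0.32, with values from 0.053 to 0.61 and 0.17 for Adipoq. A larger share of adipocytes and more RNA per adipocyte cannot be told apart in these bulk samples, and the part of these markers in the results below was not tested.

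Of the 29 genes 23 rose and 1 fell in U-IRX3ov cells, and 5 did not pass the test. These shares are 79.3% higher and 3.45% lower, beside 20.2% higher and 21.1% lower (41.3% in either direction) among all genes tested. With a log2 fold change of 0.5 or more as well, 16 of the 29 genes were higher, beside 6.19% of all genes tested. The median log2 fold change of the 29 genes was 0.55 and that of all genes tested was -0.0047. For 24 of the genes the lowest U-IRX3ov library was above the highest control, and for 1 the order was the opposite, while 24.9% and 25.9% of all genes tested were separated in these ways. Control libraries gave 0.965% ± 0.00998 (SD, n = 3) of their reads to the 29 genes together, and U-IRX3ov libraries gave 1.32% ± 0.0155. Changes were not uniform: log2 fold changes ran from -0.51 for Nnt to 0.85 for Ogdh. All 18 genes for citrate synthase, cytosolic aconitase, the isocitrate, oxoacid and malate dehydrogenases, succinyl-CoA ligase and fumarase rose, and the 5 genes that did not pass were 2 malic enzymes, the mitochondrial carboxykinase, an alanine aminotransferase and glutamate dehydrogenase.

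**Figure D1:**
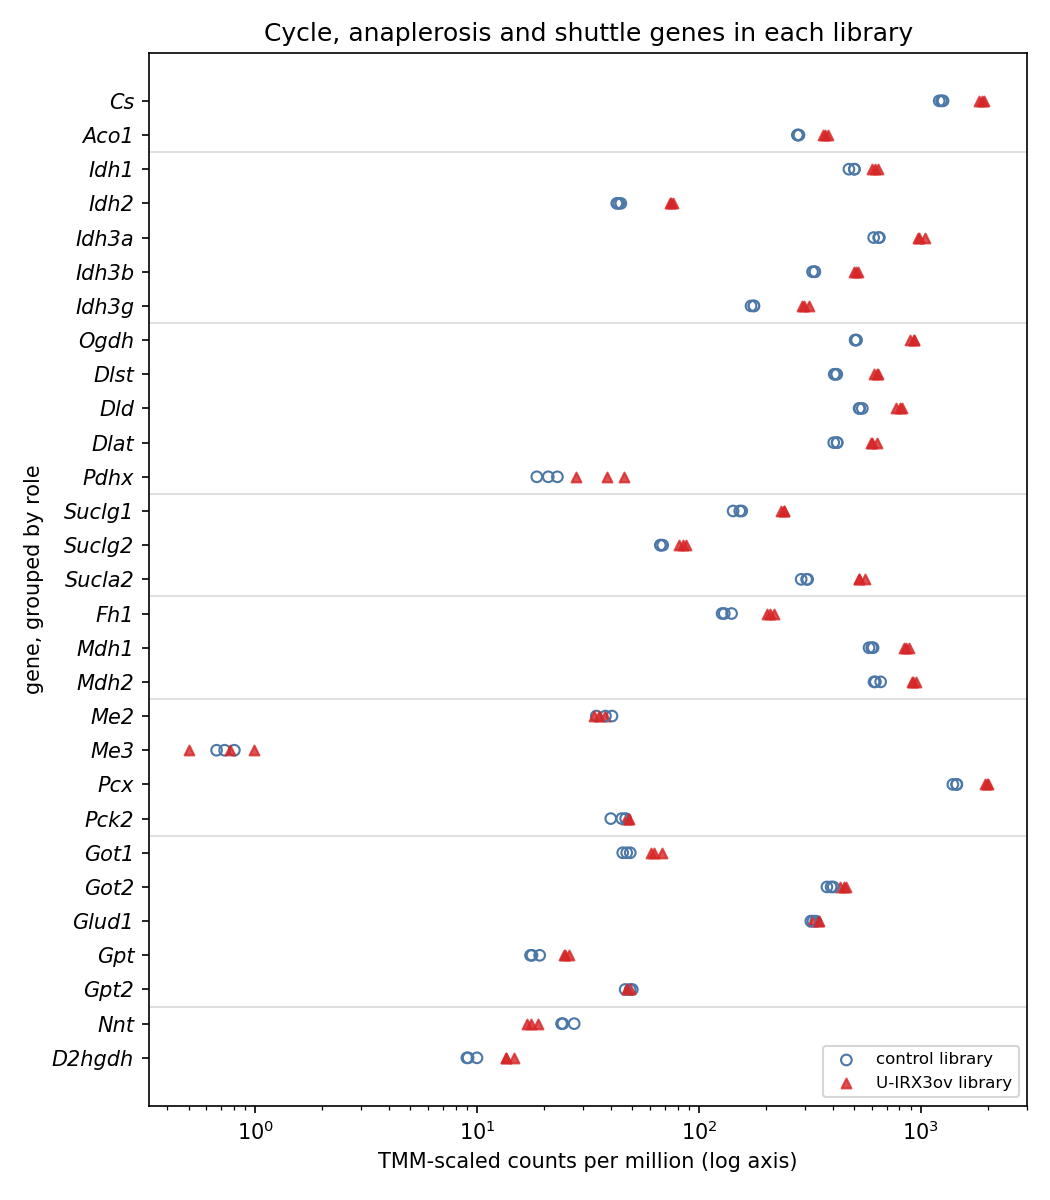
TMM-scaled CPM of each of the 29 genes (log axis) in the 3 control libraries (circles) and the 3 U-IRX3ov libraries (triangles), grouped by role. The triangles lie to the right of the circles for 24 genes, to the left for Nnt, and overlap with them for Me2, Me3, Glud1 and Gpt2.

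Citrate synthase (Cs), which joins acetyl-CoA to oxaloacetate and starts the cycle, had 1209, 1238 and 1259 CPM in control and 1834, 1884 and 1923 CPM in U-IRX3ov libraries. The groups did not overlap, and Cs rose by 0.61 ± 0.03 on the log2 scale (SE, adjusted p = 3.39e-14). Cytosolic aconitase (Aco1), which turns citrate into isocitrate and doubles as an iron-sensing RNA-binding protein, rose by 0.41 ± 0.04 (adjusted p = 2.19e-10), from 279 ± 2.45 to 371 ± 10.2 CPM (SD, n = 3). The U-IRX3ov libraries lay above the controls for both genes.

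The 5 isocitrate dehydrogenase genes all rose, but unequally. Idh3a, Idh3b and Idh3g encode the NAD-linked enzyme of the cycle, while Idh2 in mitochondria and Idh1 in the cytosol and peroxisomes encode NADP-linked enzymes that make NADPH. Idh2 had 43.4, 42.6 and 44.4 CPM in control and 74.0, 76.4 and 74.4 CPM in U-IRX3ov libraries. This was a 1.72-fold rise (log2 0.79 ± 0.05, adjusted p = 3.68e-13), in which each U-IRX3ov library lay far above the narrow range of the controls. Idh1 had 502, 501 and 474 CPM in control and 618, 602 and 641 CPM in U-IRX3ov libraries. Its rise was 1.26-fold (log2 0.33 ± 0.04, adjusted p = 1.51e-08), the third smallest of the 23. The catalytic subunit Idh3a went from 636 ± 20.4 to 1000.1 ± 41.1 CPM (log2 0.65 ± 0.04), the regulatory subunit Idh3b from 330 ± 4.38 to 509 ± 8.94 CPM (0.63 ± 0.03), and the regulatory subunit Idh3g from 175 ± 2.98 to 301 ± 11.3 CPM (0.79 ± 0.04). The log2 ratio of Idh3g to Idh3b counts within a library rose from -0.91 ± 0.0058 to -0.76 ± 0.039 (SD, n = 3), with no overlap between groups (exact permutation p = 0.1).

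Subunits of the 2 large oxoacid dehydrogenase complexes rose in 5 of 5 genes. Ogdh, the decarboxylating subunit of the oxoglutarate dehydrogenase complex, had 513, 505 and 507 CPM in control and 895, 929 and 932 CPM in U-IRX3ov libraries. It rose 1.81-fold (log2 0.85 ± 0.03, adjusted p = 3.36e-17), far above the spread within either group. Dlst, the succinyltransferase core of the same complex, rose by 0.61 ± 0.03, from 411 ± 5.62 to 630 ± 12.7 CPM. Dld, the dihydrolipoamide dehydrogenase shared by these complexes, rose by 0.58 ± 0.03, and Dlat, the acetyltransferase core of pyruvate dehydrogenase, by 0.56 ± 0.04. Pdhx, which anchors Dld to the pyruvate dehydrogenase core, was the most variable of the genes that passed. It had 23.0, 20.9 and 18.6 CPM in control and 38.5, 45.8 and 27.8 CPM in U-IRX3ov libraries, a coefficient of variation of 24.2% in the latter. Its order with Ogdh is not settled, since Pdhx had the higher estimate without control library 1 (0.92 against 0.86) or U-IRX3ov library 3 (1.01 against 0.85). Its log2 fold change of 0.84 ± 0.22 passed (adjusted p = 0.0390) but lost the call in 4 of 6 fits without 1 library, namely without control library 1 (adjusted p = 0.0819), 2 (0.122) or 3 (0.129) or U-IRX3ov library 1 (0.118).

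The upstream sequence of Ogdh is shown because this gene had the smallest adjusted p of the set. RefSeq (GRCm38.p6) lists 6 start windows for it, of which 3 neighbouring ones hold a full cyclic AMP response element, TGACGTCA. The stretch before the first of these starts lies at chr11:6291347-6291596 on the plus strand, with the element in capitals beginning 51 bases before the start.
Ogdh: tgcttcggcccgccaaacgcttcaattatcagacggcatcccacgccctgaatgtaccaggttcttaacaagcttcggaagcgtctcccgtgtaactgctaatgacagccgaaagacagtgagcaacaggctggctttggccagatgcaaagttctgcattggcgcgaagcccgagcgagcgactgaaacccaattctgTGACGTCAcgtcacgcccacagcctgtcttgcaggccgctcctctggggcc
Windows of 300 bases, from 250 before to 50 after each start, were available for 25 of the 29 genes and for 27025 genes in all, and both strands were searched. The element was present in Ogdh and Mdh2, 2 of 25 genes, and in 2.03% of all genes. The ERR element TCAAGGTCA was in 0 of 25 and in 0.466% of all genes. The NRF1 letters GCGCATGCG were in Ogdh only, beside 1.95% of all genes, and the YY1 letters AAGATGGCG in Idh3g only, beside 1.64%. No pair of these motifs overlapped in these genes. A match describes the letters of the window and does not show binding.

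Succinyl-CoA ligase pairs the shared subunit Suclg1 with either Sucla2, which makes ATP, or Suclg2, which makes GTP. Sucla2 had 305, 289 and 309 CPM in control and 524, 526 and 560 CPM in U-IRX3ov libraries, a rise of 0.83 ± 0.04 on the log2 scale (adjusted p = 4.80e-16). Suclg2 had 68.6, 66.9 and 67.2 CPM in control and 81.4, 84.9 and 87.7 CPM in U-IRX3ov libraries, a rise of 0.32 ± 0.05 (adjusted p = 1.16e-06). Both rose without overlap, Sucla2 by more. Within libraries the log2 ratio of Sucla2 to Suclg2 counts went from 2.15 ± 0.045 to 2.66 ± 0.029 (SD, n = 3), a difference of 0.51 ± 0.03 (SE) and again no overlap (exact permutation p = 0.1). The count of Suclg2 is uncertain, since 38.7% of its longest transcript matches the annotated gene Gm15163. Suclg1 rose by 0.67 ± 0.04, from 150 ± 6.98 to 240 ± 5.20 CPM.

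The last steps of the cycle also rose. Fh1, which hydrates fumarate to malate, had 130, 127 and 140 CPM in control and 202, 208 and 219 CPM in U-IRX3ov libraries (log2 0.66 ± 0.04, adjusted p = 4.09e-13). Mdh2, the mitochondrial malate dehydrogenase, had 624, 615 and 659 CPM in control and 910, 920 and 947 CPM in U-IRX3ov libraries (0.55 ± 0.04, adjusted p = 5.46e-13). Mdh1, its cytosolic counterpart in the shuttle, had 609, 584 and 600 CPM in control and 854, 843 and 879 CPM in U-IRX3ov libraries (0.52 ± 0.03, adjusted p = 7.30e-13). The U-IRX3ov libraries lay above the controls for each of these 3 genes, and the intervals of the 2 malate dehydrogenases overlapped (0.48 to 0.62 for Mdh2 and 0.45 to 0.59 for Mdh1).

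Of the 4 genes for pyruvate carboxylase, the mitochondrial malic enzymes and the mitochondrial carboxykinase, 1 rose and 3 did not pass. Pcx, the pyruvate carboxylase that makes oxaloacetate, had 1394, 1449 and 1454 CPM in control and 1950, 1998 and 1993 CPM in U-IRX3ov libraries. It rose by 0.47 ± 0.03 on the log2 scale (adjusted p = 4.76e-12). The mitochondrial malic enzyme Me2, which turns malate into pyruvate, had 40.5, 34.4 and 37.9 CPM in control and 37.5, 33.7 and 35.3 CPM in U-IRX3ov libraries. These values overlapped (log2 -0.08 ± 0.07, 95% interval -0.22 to 0.057, adjusted p = 0.362). Me3, the NADP-linked mitochondrial malic enzyme, had 13 to 22 counts per library, and its interval of -0.78 to 0.79 covers both a fall and a rise (adjusted p = 0.992). Pck2, the mitochondrial phosphoenolpyruvate carboxykinase, had 40.0, 46.7 and 44.8 CPM in control and 46.9, 47.8 and 48.5 CPM in U-IRX3ov libraries. The U-IRX3ov values were just above the controls, and the log2 fold change of 0.12 ± 0.06 did not pass (adjusted p = 0.108). It passed without control library 2 (log2 0.17, adjusted p = 0.0442) and was 0.060 without control library 1 (adjusted p = 0.478).

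Transaminases and glutamate dehydrogenase, which link the cycle to amino acids, had a median log2 fold change of 0.19, with 3 of 5 genes higher. Got1, the cytosolic aspartate aminotransferase of the shuttle, had 47.2, 45.3 and 48.9 CPM in control and 60.4, 62.7 and 67.8 CPM in U-IRX3ov libraries (log2 0.43 ± 0.06, adjusted p = 2.91e-07). Got2, the mitochondrial form, had 394, 377 and 403 CPM in control and 458, 433 and 449 CPM in U-IRX3ov libraries (0.19 ± 0.04, adjusted p = 9.51e-05). Both passed without overlap, Got2 with the smallest fold of the genes that rose. Gpt, the cytosolic alanine aminotransferase, had 17.4, 17.6 and 19.1 CPM in control and 24.6, 25.9 and 24.8 CPM in U-IRX3ov libraries (0.48 ± 0.07, adjusted p = 4.61e-06). Its mitochondrial counterpart Gpt2 had 46.4 to 50.0 CPM in control and 47.2, 48.9 and 47.5 CPM in U-IRX3ov libraries. The groups overlapped, and the 95% interval of the log2 fold change was -0.13 to 0.094 (adjusted p = 0.820). Glud1, the glutamate dehydrogenase that feeds oxoglutarate into the cycle, had 326, 336 and 319 CPM in control and 343, 327 and 348 CPM in U-IRX3ov libraries. It too overlapped, with an interval of -0.021 to 0.13 (adjusted p = 0.254). Got2 matches annotated copies (Gm10874 and Got2-ps1) over 72.5% of its longest transcript and Glud1 matches Glud-ps and Gm43444 over 27.8%, so their counts are uncertain.

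Nnt was the one gene of the 29 that fell. It encodes the nicotinamide nucleotide transhydrogenase of the inner mitochondrial membrane, which uses the proton gradient to make NADPH from NADH. Nnt had 24.3, 24.0 and 27.4 CPM in control and 18.7, 17.5 and 16.7 CPM in U-IRX3ov libraries. All U-IRX3ov libraries lay below all controls, and the log2 fold change was -0.51 ± 0.08 (95% interval -0.67 to -0.35, adjusted p = 3.40e-06), with values from -0.56 to -0.45 without 1 library. Nnt lies on chromosome 13 at 119335448 to 119408997 of GRCm38 (minus strand), where GENCODE splits it into 2 gene models. The C57BL/6J substrain carries a known deletion of several Nnt exons, and the labels name no substrain. Reads can be counted only over exons that the assembly and the gene models hold. Whether these hold all exons of Nnt was not tested, so its counts may be partial and its level is uncertain. D2hgdh, which clears the hydroxyglutarate that arises from oxoglutarate, rose by 0.56 ± 0.10 (adjusted p = 3.38e-05), from 9.35 ± 0.542 to 13.8 ± 0.637 CPM. Its counts are uncertain, since 27.7% of its longest transcript matches Gm18666 and Gm7889.

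**Figure D2:**
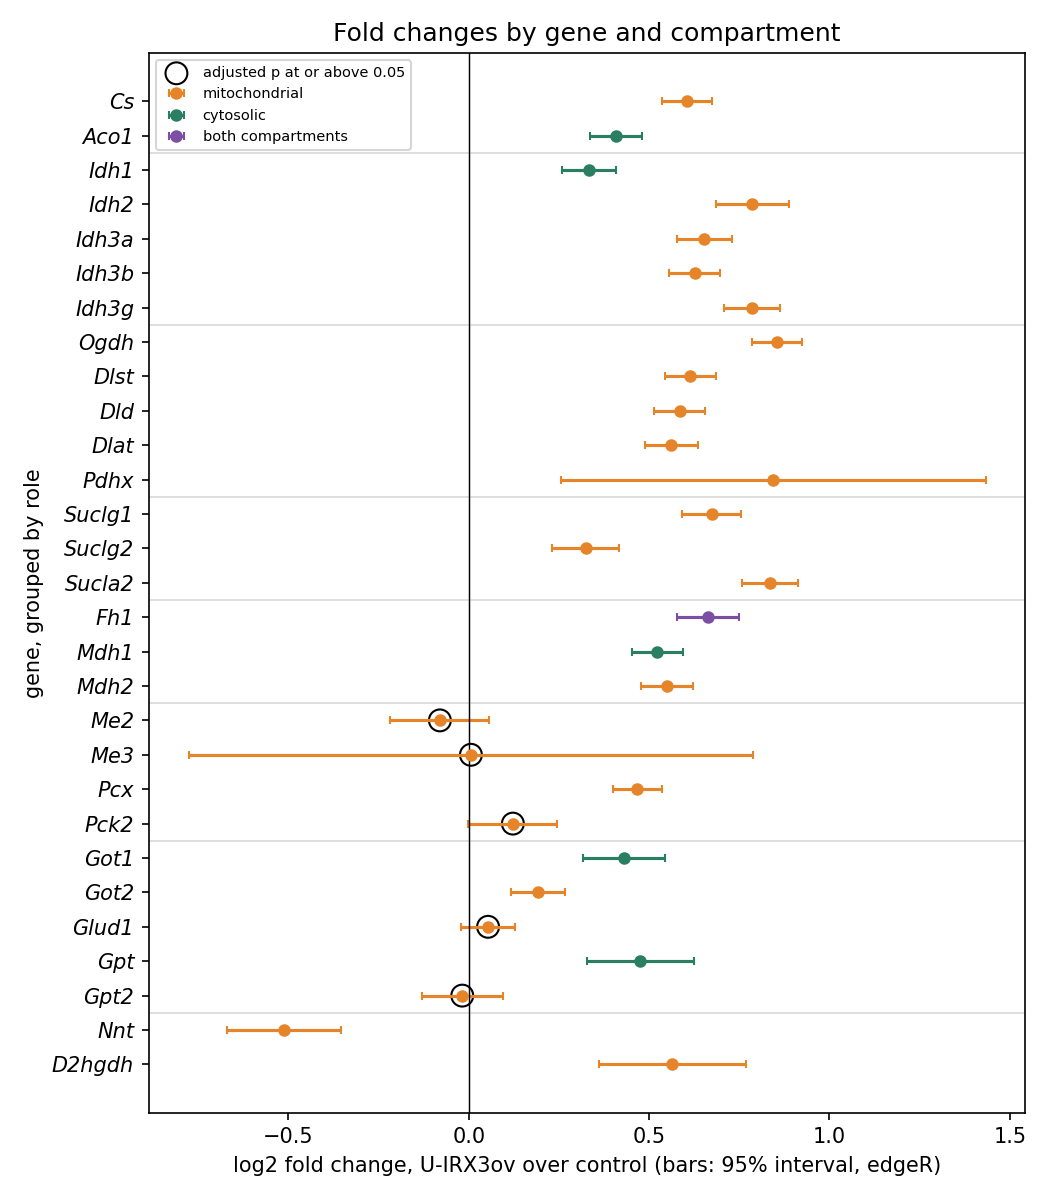
Log2 fold change of U-IRX3ov over control for each of the 29 genes with the 95% interval from edgeR, coloured by compartment and ringed where the adjusted p was 0.05 or more. The 5 cytosolic genes lie between 0.33 and 0.52, while the mitochondrial genes spread from -0.51 for Nnt to 0.85 for Ogdh.

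Mitochondrial and cytosolic genes were then compared. All 5 cytosolic genes rose (median log2 fold change 0.43, range 0.33 to 0.52), and of the 23 mitochondrial genes 17 rose, 1 fell and 5 did not pass (median 0.56). The 23 mitochondrial genes went from 0.803% ± 0.0103 of a control library's counts to 1.11% ± 0.0139 of a U-IRX3ov library's (SD, n = 3), a ratio of 1.38, and the 5 cytosolic genes from 0.148% ± 0.00147 to 0.187% ± 0.00173, a ratio of 1.26. These sums follow the most abundant genes. The paired isoforms, described next, did not share 1 direction.

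The isoforms of a pair come from separate genes that differ along their length. Over the 7 pairs of mitochondrial and cytosolic isoforms examined, coding sequences were identical at 56.0% to 71.1% of aligned bases, and the longest stretch shared exactly was 11 to 20 bases. The most alike stretches of 60 bases in 2 member pairs are shown to make this visible, on GRCm38, with the bases that differ in capitals. For isocitrate dehydrogenase they cover coding bases 745 to 804 of Idh2 (chr7:80098147-80098206, minus strand) and 628 to 687 of Idh1 (chr1:65166118-65166177, minus strand), counted from the start codon, and differ at 6 bases.
Idh2: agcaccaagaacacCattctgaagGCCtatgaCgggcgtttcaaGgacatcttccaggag
Idh1: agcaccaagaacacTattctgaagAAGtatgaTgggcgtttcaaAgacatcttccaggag
For alanine aminotransferase they cover bases 1405 to 1464 of Gpt2 (chr8:85523295-85523354, plus strand) and 1327 to 1386 of Gpt (chr15:76699275-76699334, plus strand), and differ at 7 bases.
Gpt2: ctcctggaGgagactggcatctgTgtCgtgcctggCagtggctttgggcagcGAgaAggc
Gpt: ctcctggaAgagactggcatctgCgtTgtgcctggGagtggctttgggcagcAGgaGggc
Each of these 4 stretches lies within 1 coding exon.

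The balance of isoforms shifted toward mitochondria for isocitrate dehydrogenase, toward the cytosol for both aminotransferases, and overlapped between groups for malate dehydrogenase. The ratio of 2 genes' counts within a library does not depend on library scaling, and 13 such ratios were compared. For Idh2 over Idh1 the log2 ratio was -3.53, -3.56 and -3.42 in control and -3.06, -2.98 and -3.11 in U-IRX3ov libraries, a difference of 0.45 ± 0.06 (SE). All U-IRX3ov libraries had the higher ratio. For Got2 over Got1 it was 3.06, 3.06 and 3.04 in control and 2.92, 2.79 and 2.73 in U-IRX3ov libraries, a difference of -0.24 ± 0.06. For Gpt2 over Gpt it was 1.49, 1.50 and 1.28 in control and 0.94, 0.92 and 0.93 in U-IRX3ov libraries, a difference of -0.49 ± 0.07. In both aminotransferase pairs all U-IRX3ov libraries had the lower ratio, though the count of Got2 is uncertain because of its annotated copies. For Mdh2 over Mdh1 the log2 ratio was 0.034, 0.075 and 0.13 in control and 0.091, 0.13 and 0.11 in U-IRX3ov libraries. The groups overlapped, with a difference of 0.027 ± 0.031 (exact permutation p = 0.5). The other 3 pairs each had a two-sided exact permutation p of 0.1, the smallest that 3 against 3 libraries can give, or 0.13 adjusted over the 13 ratios, so none of these shifts could pass a threshold of 0.05.

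**Figure D3:**
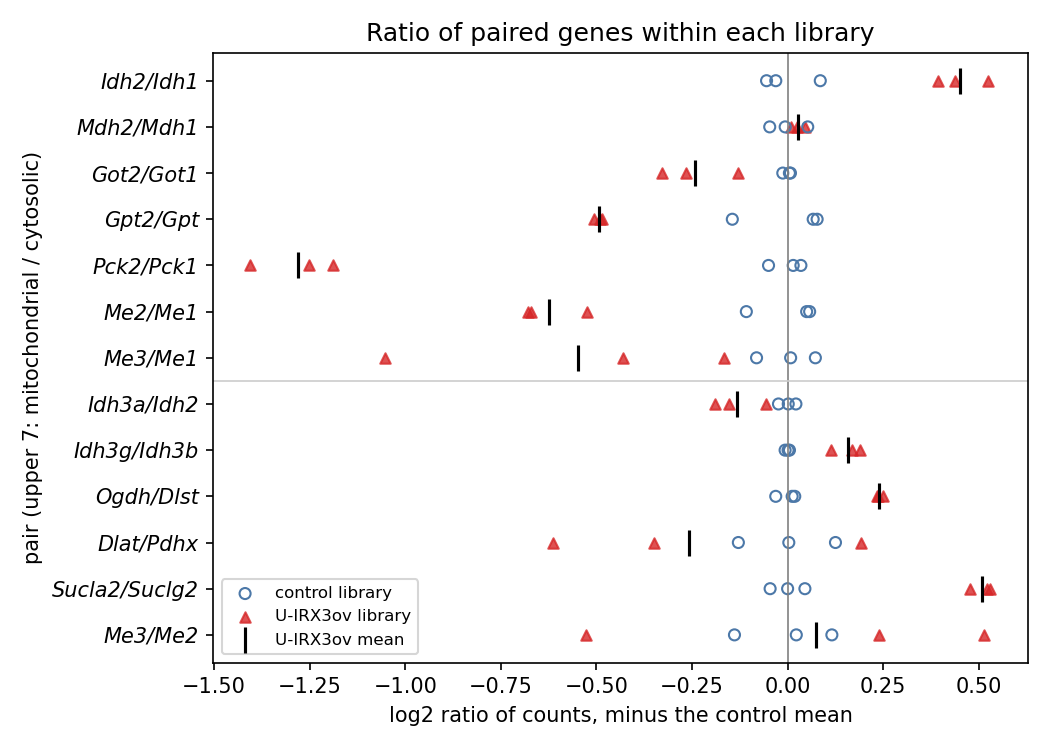
Log2 ratio of the counts of paired genes in each library, with the control mean of the pair subtracted, for 7 mitochondrial over cytosolic pairs (upper block) and 6 other pairs, with a bar at the U-IRX3ov mean. The U-IRX3ov libraries lie right of the controls for Idh2/Idh1, left for Got2/Got1, Gpt2/Gpt, Pck2/Pck1, Me2/Me1 and Me3/Me1, and among them for Mdh2/Mdh1.

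In the pairs whose cytosolic gene is outside the 29, the ratio was lower in the U-IRX3ov libraries. The log2 ratio of Pck2 to Pck1 went from 1.61 ± 0.044 to 0.32 ± 0.11 (SD, n = 3), a difference of -1.28 ± 0.07 (SE), in which cytosolic Pck1 rose 2.65-fold (14.4 ± 0.791 to 38.2 ± 2.94 CPM, log2 1.41 ± 0.07, adjusted p = 7.08e-15). Me2 over Me1 fell by 0.62 on the log2 scale, in which Me1, the cytosolic malic enzyme that makes NADPH for fat synthesis, rose by 0.54 ± 0.04. Counts of Me1 are uncertain, because 60.1% of its longest transcript matches annotated copies such as Gm7049. Me3 over Me1 differed by -0.55 ± 0.27 (SE), which rests on 13 to 22 counts of Me3 per library and is the least certain. None of these ratios overlapped between groups, each with exact permutation p = 0.1. Among subunits of 1 complex, the log2 ratio of Ogdh to Dlst went from 0.30 ± 0.027 to 0.54 ± 0.0085 (exact permutation p = 0.1), while Dlat over Pdhx overlapped (exact permutation p = 0.4). Idh3a over Idh2, the NAD-linked over the NADP-linked mitochondrial enzyme, was lower in the U-IRX3ov libraries, with a difference of -0.13 ± 0.04 and no overlap (exact permutation p = 0.1).

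Levels of different genes were compared per kilobase of annotated exon. In control cells Pcx had 301 ± 6.95 CPM per kb (SD, n = 3), followed by Mdh1 with 233 ± 5.01 and Cs with 214 ± 4.34. Idh1 (178 ± 5.80) and Mdh2 (178 ± 6.50 CPM per kb) did not differ beyond their spread. The lowest were Nnt with 3.58 ± 0.263, D2hgdh with 2.18 ± 0.127 and Me3 with 0.0501 ± 0.0046 CPM per kb. On this scale Idh2 stood at 0.0945 of Idh1 in control and 0.129 in U-IRX3ov cells, so the cytosolic form was the more abundant one in both. Got2 stood at 4.37 times Got1 in control and 3.69 times in U-IRX3ov cells, though the count of Got2 is uncertain because of its annotated copies. Gpt2 went from 1.40 times Gpt to 0.993, and Pck2 from 1.34 times Pck1 to 0.549. Annotated length decides some of these orders. With the longest transcript in place of all exons, Cs (411 CPM per kb in control) came before Mdh2 (394) and Pcx (345). Mdh2 was then above Mdh1 rather than below it, and far above Idh1 (214 CPM per kb in control) rather than level with it. Gpt2 stayed above Gpt in U-IRX3ov cells (1.47 times). Gpt (6.44 CPM per kb in control) then came below Nnt (7.28), but this order is uncertain. For Nnt the exon length joined both gene models (7037 bases), while the longest transcript was taken from the first model only (3464 bases). Got2 then stood at 6.75 times Got1 in control and 5.71 times in U-IRX3ov cells.

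**Figure D4:**
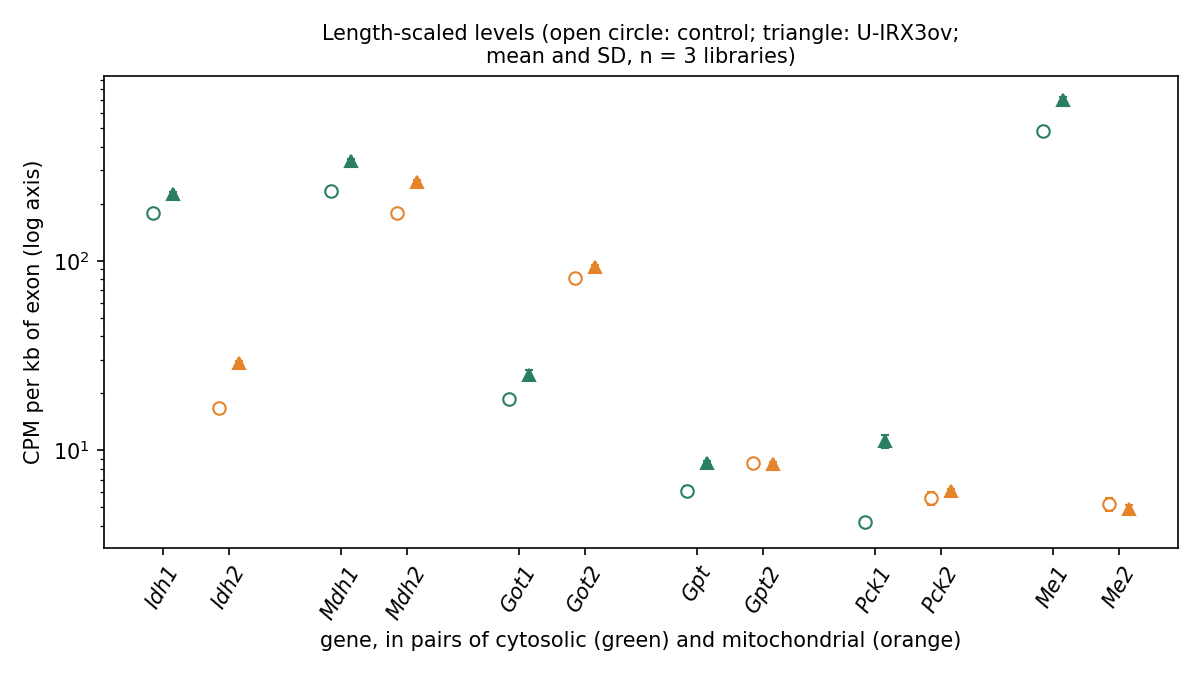
Length-scaled level (CPM per kb of exon, log axis) of 6 cytosolic genes and their mitochondrial counterparts in control (circles) and U-IRX3ov cells (triangles), as mean and SD of 3 libraries. Got2 is above its cytosolic counterpart in both groups, Idh2 and Me2 are below theirs, and Pck1 passes Pck2 in U-IRX3ov cells.

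Of 25 other genes of these pathways, 23 were tested, of which 18 rose and 1 fell (median log2 fold change 0.54). Fits with other settings or without 1 library called 16 to 18 higher and 1 lower. Succinate dehydrogenase, the cycle enzyme embedded in the respiratory chain, rose in its 4 subunits, by 0.71 ± 0.03 for Sdha, 0.68 ± 0.04 for Sdhb, 0.46 ± 0.04 for Sdhc and 0.65 ± 0.03 for Sdhd. The pyruvate dehydrogenase subunits Pdha1 (0.59 ± 0.04) and Pdhb (0.67 ± 0.04) rose, as did Dhtkd1, an Ogdh relative of lysine breakdown (0.39 ± 0.13). Ogdhl, another relative of Ogdh, had a log2 fold change of -0.58 ± 0.12, from 9.85 ± 0.663 to 6.59 ± 0.833 CPM (SD, n = 3, adjusted p = 3.03e-04). Glul, which makes glutamine from glutamate, rose by 0.37 ± 0.04.

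Acly, the ATP citrate lyase of fat synthesis, rose by 0.70 ± 0.03 and the dicarboxylate carrier Slc25a10 by 0.24 ± 0.04, while the citrate carrier Slc25a1 (adjusted p = 0.0657) and the oxoglutarate-malate carrier Slc25a11 (adjusted p = 0.243) did not pass. The aspartate-glutamate carriers of the malate-aspartate shuttle did not pass. Slc25a12 had 16.8, 16.3 and 15.5 CPM in control and 15.8, 14.8 and 15.1 CPM in U-IRX3ov libraries (95% interval of the log2 fold change -0.26 to 0.083, adjusted p = 0.425), and Slc25a13 had an interval of -0.45 to 0.28 (adjusted p = 0.740). Both overlapped between groups, beside rises in the 4 shuttle enzymes Mdh1, Mdh2, Got1 and Got2. The glutamate carrier Slc25a22 rose by 0.57 ± 0.04, from 108 ± 4.72 to 161 ± 0.446 CPM. All 5 listed genes for lipoylation, NAD phosphorylation and hydroxyglutarate rose: Lias (0.34 ± 0.05), Lipt1 (0.77 ± 0.10) and Lipt2 (0.38 ± 0.15), which make or attach the lipoyl arm that Dlst and Dlat need, the mitochondrial NAD kinase Nadk2 (0.52 ± 0.07), and Adhfe1 (0.52 ± 0.04), which makes hydroxyglutarate. Lipt1 shares 12.8% of its exon bases with Mitd1 on the other strand.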

How the data were processed

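Whole-number read counts per gene symbol, not normalized, were deposited by the authors as 1 table with a column for each of the 6 libraries. The submitters' processing notes name HISAT2 2.0.4 and mm10. Which program counted the reads, with or without strand, and what it did with ambiguous alignments was not given in the sources used here. Libraries were grouped by the genotype in the labels. Genes were filtered with filterByExpr, scaled by TMM and tested with edgeR 4.0.16 (robust quasi-likelihood F test, group as the only term, Benjamini-Hochberg over 14757 genes) in R 4.3.3. The tested genes held at least 99.9% of each library's counts. Standard errors are the log2 fold change divided by the square root of F.

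Log2 ratios of paired genes used counts plus 0.5 and an exact two-sided permutation test over libraries, without a p over gene groups. Coordinates, exon lengths, overlaps and coding sequences came from GENCODE M21 (GRCm38, the assembly of mm10), and promoter windows from RefSeq (GRCm38.p6). Copies were other genes with matches of 100 bases or more at 97% identity. Coding sequences were aligned with Biopython 1.88. The members, gene lists and pairs were chosen with earlier results of these data known. By the rule for named genes, the text names all 29 members, the other listed pathway genes, Irx3, Ucp1 and Adipoq, and gives markers as counts and sums. A few other pathway genes and 1 pair are not reported here and enter no list count or pair adjustment. The scripts were tested on simulated data. Alternatives were other scalings, no filter, DESeq2 1.42.0, limma-voom 3.58.1, the replicate number as a block, an adjusted p of 0.01, other pseudocounts and lengths, 1 strand for the motifs, and leaving out each library.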

Additional observations from a re-analysis of the deposited data

How the results depend on the processing

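The counts of 23 genes higher and 1 lower held under both other scalings, without a filter, with DESeq2, with limma-voom and with the replicate block, and were 22 and 1 at an adjusted p of 0.01. Without 1 library they were 22 to 23 higher and 1 lower, and the median log2 fold change of the 29 genes was 0.53 to 0.56. Over all genes, 2261 to 3034 were higher and 2412 to 3324 lower under the settings that kept every library. The replicate numbers were not treated as pairs, because deviations of same-numbered libraries correlated at -0.12, 0.18 and -0.036. Those of differently numbered libraries correlated at -0.14 to 0.18. With the replicate block 3014 genes were higher and 3159 lower.

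Sign changes occurred for genes near 0. Me3 had a log2 fold change of -0.0098 with upper-quartile scaling, -0.048 with limma-voom, -0.0043 with the replicate block and -0.23 to 0.26 without 1 library. Gpt2 had -0.049 to 0.0047 without 1 library. The difference in the Me3/Me2 ratio, 0.075, was -0.14 to 0.38 without 1 library. The other 12 ratio differences kept their sign under each alternative. With the longest transcript the length-scaled log2 ratio turned for Mdh2/Mdh1 (0.48 in control and 0.51 in U-IRX3ov cells) and for Gpt2/Gpt in U-IRX3ov cells (0.55), which follows from the lengths used. Me3, with 13 to 22 counts per library, is limited by depth.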

Other observations

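The carriers of citrate and oxoglutarate, which link the matrix pool of the cycle to the cytosol, were nearly unread in these libraries. Slc25a11, the oxoglutarate-malate carrier of the malate-aspartate shuttle, had 13, 15 and 13 counts in control and 23, 13 and 14 counts in U-IRX3ov libraries. Slc25a1, the citrate carrier that supplies fat synthesis, had 32, 30 and 23 counts in control and 39, 35 and 34 counts in U-IRX3ov libraries. In CPM the U-IRX3ov libraries were higher for both genes, but neither passed edgeR's test (adjusted p = 0.243 and 0.0657). Acly, which uses the citrate that Slc25a1 exports, averaged 1256 ± 12.5 CPM over the controls and 2039 ± 70.1 CPM over the U-IRX3ov libraries (SD, n = 3). The cause of the low counts of these carriers was not tested. Slc25a11 shares 8.92% of its exon bases with Rnf167 on the other strand.

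Slc25a18, a glutamate carrier, had counts in 1 library only (3 counts), and Mdh1b, a relative of Mdh1, had at most 2 counts per library. Both were too low to test.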
